A study of Mus musculus with 8 samples.

Results

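A set of 10 neutrophil genes of the mouse was followed in 8 colon tumours: S100a8, S100a9, Csf3r, Clec4d, Trem1, Ly6g, Retnlg, Camp, Ngp and Ltf. They were chosen by name from what is known of neutrophils, but with earlier results of these data known, so they are not an independent set. Each was found by matching the Ensembl identifiers of the deposited genes to mouse symbols. All 10 were found among the 38355 genes of the count tables, and all 10 were among the 16539 genes with enough reads for the test. Camp passed that filter through 1 genotype only, and Ngp nearly so, as described with their values.

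The tumours came from mice given azoxymethane, a chemical that causes colon tumours, and 1 whole tumour was taken per mouse. The 4 Trp53ΔIEC tumours came from mice that lack Trp53, the gene of the tumour suppressor p53, in intestinal epithelial cells. The 4 Trp53ΔIECAktE17K tumours had the same loss and in addition AktE17K, an activating form of the kinase AKT. Azoxymethane and the Trp53 loss were therefore shared by all 8 tumours, and the groups differed by AktE17K. The driver of the deletion, the strain, the age, and the cells that carry AktE17K are not stated in the labels, and the counts per gene cannot check either genotype. The title of the series names NOTCH3 activation that depends on AKT in a mesenchymal type of colorectal cancer, and the comparison here asks which neutrophil transcripts differed between tumours with and without AktE17K.

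Neutrophils are short-lived white blood cells made in the bone marrow, and they fill their granules in a fixed order while they mature. Specific granule proteins such as cathelicidin, neutrophilic granule protein and lactoferrin are transcribed mainly in marrow precursors, and their transcripts are scarce in the mature cells that enter tissue. Mature cells carry abundant S100a8 and S100a9 transcripts and the receptors that sense growth factor, fungal and inflammatory signals, and they are a common part of the infiltrate of inflamed colon and of colon tumours.

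Upstream sequences are shown for the 3 granule genes, which had the largest fold changes, and for S100a8 and S100a9, which moved together most closely. They come from RefSeq promoter windows (build GRCm38.p6, the sequence of mm10), written 5′ to 3′ on the strand of the gene. Each stretch starts 250 bases before the RefSeq start and ends there, or sooner where the GENCODE M21 gene begins. Capitals mark matches on either strand to the C/EBP motif TTGCNNAA or the PU.1 motif GAGGAA, which are bound by transcription factors of the granulocyte lineage.
Camp, chr9:109849618-109849706, minus strand: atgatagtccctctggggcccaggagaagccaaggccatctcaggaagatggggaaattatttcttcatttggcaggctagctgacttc
Ngp, chr9:110419558-110419746, plus strand: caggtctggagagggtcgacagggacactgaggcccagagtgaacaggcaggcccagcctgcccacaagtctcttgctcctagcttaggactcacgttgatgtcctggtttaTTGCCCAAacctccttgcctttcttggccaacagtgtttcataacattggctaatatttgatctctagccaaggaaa
Ltf, chr9:111019042-111019270, plus strand: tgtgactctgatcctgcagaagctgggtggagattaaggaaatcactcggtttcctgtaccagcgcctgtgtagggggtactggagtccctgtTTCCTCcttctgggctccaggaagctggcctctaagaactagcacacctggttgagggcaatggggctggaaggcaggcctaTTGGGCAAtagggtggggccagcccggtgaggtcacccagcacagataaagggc
S100a8, chr3:90668821-90668977, plus strand: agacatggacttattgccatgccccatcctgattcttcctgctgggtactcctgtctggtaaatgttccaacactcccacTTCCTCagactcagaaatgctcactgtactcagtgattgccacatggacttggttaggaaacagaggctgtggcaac
S100a9, chr3:90695722-90695971, minus strand: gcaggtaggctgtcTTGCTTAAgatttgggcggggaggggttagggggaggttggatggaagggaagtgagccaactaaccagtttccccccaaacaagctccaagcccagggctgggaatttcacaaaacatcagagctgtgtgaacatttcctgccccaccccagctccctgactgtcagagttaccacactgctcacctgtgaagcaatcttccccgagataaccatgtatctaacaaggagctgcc

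The stretch of Camp holds neither motif, that of Ngp 1 C/EBP match, and that of Ltf 1 match to each. The stretch of S100a8 holds 1 PU.1 match and that of S100a9 1 C/EBP match. Over the full 250 bases, 5 of the 10 genes had a C/EBP match in a window and 6 of 10 had a PU.1 match, against 9.56% and 23.3% of 32851 RefSeq windows of the same length. The units differ, as the 10 genes have 11 windows and the shares count single windows. Full windows of several genes also reach into the GENCODE gene. For S100a8, Retnlg, Trem1 and a window of Ly6g, the bases just after the RefSeq start were not found in a GENCODE transcript. Both motifs were searched on both strands and their matches share no base in these stretches. Camp, Ngp and Ltf lie on chromosome 9, with 569852 bases between the windows of Camp and Ngp and 599235 between those of Ngp and Ltf, and the windows of S100a8 and S100a9 on chromosome 3 are 26652 bases apart.

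Each library held 18572180 to 26268547 reads assigned to genes. Levels are given as reads per 1000000 assigned reads (CPM), scaled between libraries by the TMM method, and a gene was called when its adjusted p in edgeR's quasi-likelihood test, over all 16539 genes, was under 0.05. By that rule 4.2% of all genes were called, 3.44% higher and 0.756% lower in Trp53ΔIECAktE17K tumours. Epithelial genes were abundant, as the 9 markers of the colon epithelium list summed to 9962 to 12584 CPM in Trp53ΔIEC and 5355 to 13585 CPM in Trp53ΔIECAktE17K tumours. The list holds genes shared with other epithelia, such as Epcam and Krt19, so its sum alone does not verify the colon label. Genes of other tissues also moved with the genotype, among them the heart muscle gene Myh6 at 0 to 0.223 CPM in Trp53ΔIEC and 47.6 to 57.0 CPM in Trp53ΔIECAktE17K tumours. In whole tumours, fewer cells of a type and less RNA per cell cannot be told apart.

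Of the 10 neutrophil genes, 1 was called, Camp, which was higher in Trp53ΔIECAktE17K tumours, and none was called lower. Unadjusted p was under 0.05 for 3 of the 10, the granule genes Camp, Ngp and Ltf, against 20.8% of all genes. Camp and Ngp, 2 of 10, had groups that did not overlap in CPM, against 14.2% of all genes. The median log2 fold change of the 10 genes was 1.08, beside 0.01 over all genes tested, and 8 of 10 fold changes were above 0. DESeq2 called 3 of the 10 (Camp, Ngp and Ltf), with 12% of its genes called, and limma-voom called 2 (Camp and Ngp), with 3.31% called.

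**Figure D1:**
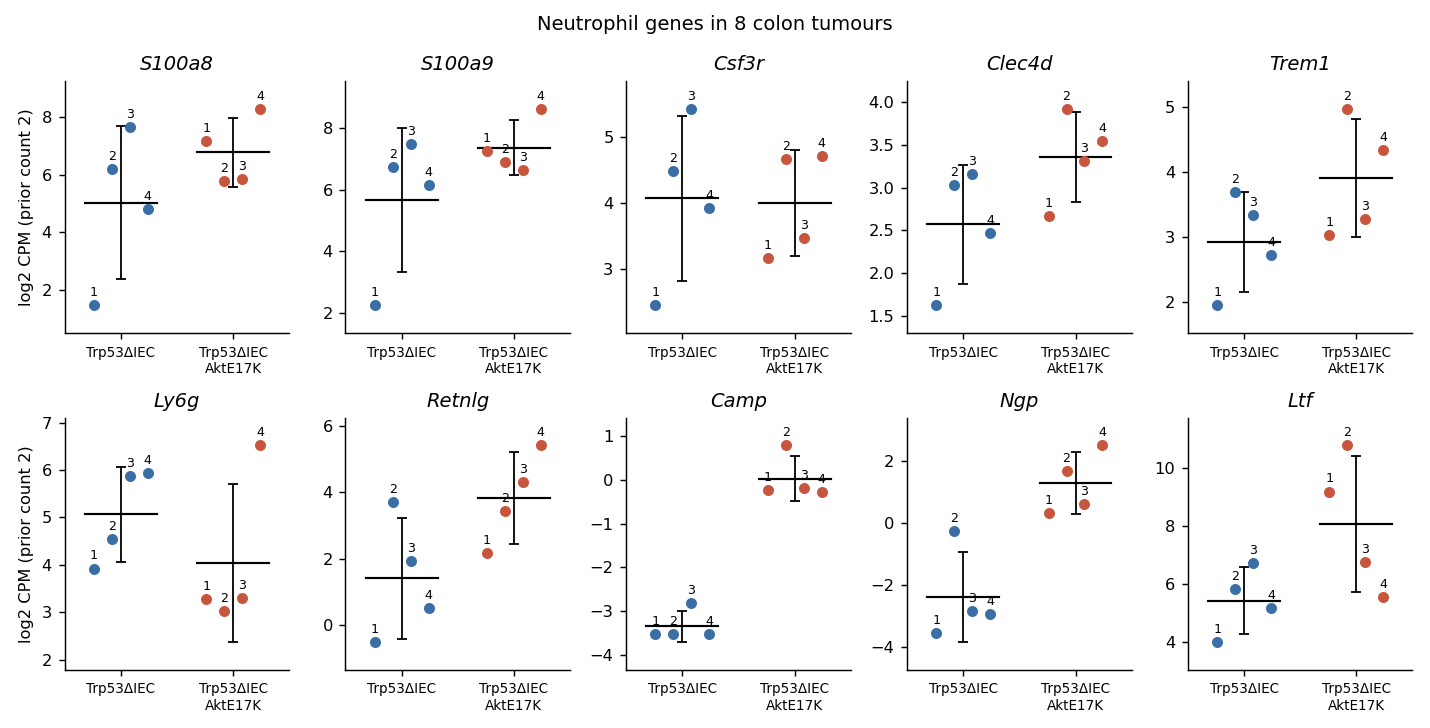
Log2 CPM (prior count of 2) of each of the 10 neutrophil genes, with 1 numbered point per tumour for 4 Trp53ΔIEC (blue) and 4 Trp53ΔIECAktE17K (red) tumours; horizontal lines are group means and bars are SD. Trp53ΔIEC replicate 1 is lowest or tied for lowest in 9 of 10 genes, and the groups are apart for Camp and Ngp.

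Camp encodes the antimicrobial peptide cathelicidin of the specific granule (ENSMUSG00000038357, chromosome 9, 109847379 to 109849617). Camp had 0, 0, 1 and 0 reads in Trp53ΔIEC replicates 1 to 4 and 18, 40, 19 and 16 reads in Trp53ΔIECAktE17K replicates 1 to 4. On the CPM scale these were 0, 0, 0.0559 and 0 against 0.762, 1.65, 0.798 and 0.745. Camp was thus at or near 0 in every Trp53ΔIEC tumour and low but present in every Trp53ΔIECAktE17K tumour, with no overlap. A count of 0 allows a level of up to 0.115, 0.113 and 0.140 CPM, the worth of 3 reads, in Trp53ΔIEC replicates 1, 2 and 4.

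Summed over tumours, 93 Camp reads in Trp53ΔIECAktE17K stood against 1 in Trp53ΔIEC, a library-scaled ratio of 91.9 with an exact Clopper-Pearson 95% interval of 16.1 to 3669 that covers counting error only. The fitted log2 fold change was 5.91 ± 0.77 (SE, n = 4 per group; edgeR adjusted p = 0.0107), and its size depends on the prior count, since 1 group was almost empty. No Trp53ΔIEC tumour and all 4 Trp53ΔIECAktE17K tumours reached the 0.430 CPM of the filter on low counts, so Camp entered the test only through the group in which it was high. The call held in 6 of 8 fits that left out 1 tumour, and the adjusted p was 0.0530 without Trp53ΔIEC replicate 2 and 0.0521 without Trp53ΔIEC replicate 4.

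Ngp encodes neutrophilic granule protein, a cystatin-like protein of the same granules (ENSMUSG00000032484, chromosome 9, 110419747 to 110423012). Ngp had 0, 20, 1 and 1 reads in Trp53ΔIEC replicates 1 to 4 and 28, 77, 35 and 121 reads in Trp53ΔIECAktE17K replicates 1 to 4. In CPM these were 0, 0.752, 0.0559 and 0.0465 against 1.19, 3.17, 1.47 and 5.63. Replicate 2 was the only Trp53ΔIEC tumour with more than 1 Ngp read, and its level was still below the lowest Trp53ΔIECAktE17K tumour. For Ngp, 1 Trp53ΔIEC tumour, replicate 2, and all 4 Trp53ΔIECAktE17K tumours reached the 0.430 CPM of the filter on low counts. The log2 fold change was 3.65 ± 1.09 (SE) and was not called by edgeR (adjusted p = 0.109), while DESeq2 (adjusted p = 0.0102) and limma-voom (adjusted p = 0.0463) called it. Without Trp53ΔIEC replicate 2 the log2 fold change was 6.28.

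Ltf encodes lactoferrin, an iron-binding protein of specific granules that glandular epithelia also make (ENSMUSG00000032496, chromosome 9, 111019271 to 111042767). Ltf was at 15.9, 56.3, 106 and 36.0 CPM in Trp53ΔIEC replicates 1 to 4 and at 579.6, 1743, 108 and 47.2 CPM in Trp53ΔIECAktE17K replicates 1 to 4. Replicates 1 and 2 of Trp53ΔIECAktE17K were far above all other tumours, replicate 3 was just above the highest Trp53ΔIEC tumour, and replicate 4 lay within the Trp53ΔIEC range, so the groups overlapped. The log2 fold change of 3.53 ± 1.13 (SE) was not called by edgeR (adjusted p = 0.126) and was called by DESeq2 (adjusted p = 0.00374). Without Trp53ΔIECAktE17K replicate 2 it was 2.19.

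The sample titles give the letter A to Trp53ΔIECAktE17K replicates 1 and 2 and the letter B to the other 6 tumours, without saying what it marks. The codes deposited with the count tables instead give A to all 4 Trp53ΔIECAktE17K and B to all 4 Trp53ΔIEC tumours, so the letter in the titles may be a slip and may mark no grouping at all. With the title letter as a term, the log2 fold change of Ltf was 0.53 (edgeR adjusted p = 0.780), since the letter A tumours are the ones with the most Ltf. If the titles are right, the high Ltf of the letter A tumours and the letter cannot be told apart, as no Trp53ΔIEC tumour has letter A. Within letter B, Ltf was at 108 and 47.2 CPM in Trp53ΔIECAktE17K and at 15.9 to 106 CPM in Trp53ΔIEC tumours, with overlap. If the codes are right, the fit with the letter has no meaning. Within the tumours with letter B in their titles Camp was at 0.798 and 0.745 CPM against 0 to 0.0559 CPM, and with the letter as a term its log2 fold change was 5.56 (edgeR adjusted p = 0.0460).

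Most erythroid, heart muscle and squamous genes tested moved in the same direction as Camp and Ngp. Lists of some other cells had a median the other way. The median log2 fold change was 2.59 for the erythroid, 3.12 for the heart muscle and 4.60 for the squamous epithelium list. It was -2.22 for the hepatocyte, -1.60 for the mast cell and -1.37 for the eosinophil list. None of 8 mast cell genes was called, and 1 of 3 eosinophil and 1 of 4 hepatocyte genes tested were called lower. Of the erythroid list, 4 of 5 tested genes were higher and 1 lower, with summed levels of 7.63 to 30.7 CPM in Trp53ΔIEC and 73.1 to 169 CPM in Trp53ΔIECAktE17K tumours. Alas2, the first enzyme of heme synthesis in red cell precursors, was at 1.84, 1.24, 1.01 and 1.81 against 10.4, 9.09, 4.91 and 10.4 CPM. Of the heart muscle list 4 of 6 genes were higher and none lower, with sums of 36.3 to 115 against 108 to 174 CPM. Among these, Myh6, Myl2 and Ryr2 reached the filter level in all 4 Trp53ΔIECAktE17K and no Trp53ΔIEC tumours. Hba-a2, the erythroid gene called lower, reached it in all 4 Trp53ΔIEC and no Trp53ΔIECAktE17K tumours. Each of them thus entered the test only through the group in which it was high. No gene of the erythroid or heart muscle list was at 0 in all 8 tumours. The part of erythroid and heart transcripts in the Camp and Ngp result was not tested.

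S100a8 and S100a9 encode the subunits of calprotectin, a calcium-binding and metal-binding protein that makes up much of the neutrophil cytosol and that stressed squamous epithelium also makes. S100a8 (ENSMUSG00000056054, chromosome 3, 90668978 to 90670035) was at 2.64, 73.6, 201 and 27.7 CPM in Trp53ΔIEC replicates 1 to 4 and at 145, 54.7, 57.6 and 315 CPM in Trp53ΔIECAktE17K replicates 1 to 4. S100a9 (ENSMUSG00000056071, chromosome 3, 90692632 to 90695721) was at 4.67, 106, 178 and 70.4 CPM and at 153, 119.6, 98.6 and 393 CPM in the same order. For both genes Trp53ΔIEC replicate 1 was lowest and Trp53ΔIECAktE17K replicate 4 highest, and the groups overlapped. The log2 fold changes were 0.91 ± 1.06 for S100a8 (edgeR adjusted p = 0.673) and 1.09 ± 0.87 for S100a9 (edgeR adjusted p = 0.516), each with its SE.

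The ratio of S100a9 to S100a8 CPM varied less than the levels did. It was 1.77, 1.44, 0.883 and 2.54 in Trp53ΔIEC and 1.05, 2.19, 1.71 and 1.25 in Trp53ΔIECAktE17K tumours, whereas the highest level exceeded the lowest 119-fold for S100a8 and 84.1-fold for S100a9. In Trp53ΔIEC replicate 3 alone, S100a8 was the higher of the pair in CPM.

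Transcripts of squamous epithelium, another source of S100a8 and S100a9, were at very unequal levels in the Trp53ΔIECAktE17K tumours. Krt5, a keratin of basal squamous cells, was at 4606, 121, 2.35 and 630 CPM in Trp53ΔIECAktE17K replicates 1 to 4 and at 0.0465 to 0.714 CPM in Trp53ΔIEC tumours. Only 1 Trp53ΔIEC tumour, but all 4 Trp53ΔIECAktE17K tumours, reached the filter level for Krt5. Of 11 squamous genes tested edgeR called 5 higher and none lower, DESeq2 called 9 higher and limma-voom called none, with sums of 93.9 to 246 CPM in Trp53ΔIEC and 211 to 16355 CPM in Trp53ΔIECAktE17K tumours. Of the 11 log2 fold changes 10 were above 0, with Krt5 the largest at 12.3. Ivl was at -0.74 and Dsg3 at 0.74 (edgeR adjusted p = 0.691 and 0.784). The content of squamous cells was not measured. Trp53ΔIECAktE17K replicates 1 and 4 had the most Krt5 and, of their group, also the most S100a8 and S100a9, although Krt5 was highest in replicate 1 and the S100 pair in replicate 4. Leaving both out gave log2 fold changes of -0.47 for S100a8 and 0.26 for S100a9, which had to be lower because the highest S100 values were removed. The part of squamous transcripts in the S100 values was not tested.

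Csf3r encodes the receptor of granulocyte colony-stimulating factor, the growth factor that drives neutrophil production (ENSMUSG00000028859, chromosome 4, 126024550 to 126044440). Csf3r was at 5.36, 22.2, 43.0 and 15.1 CPM in Trp53ΔIEC replicates 1 to 4 and at 8.89, 25.2, 10.96 and 26.1 CPM in Trp53ΔIECAktE17K replicates 1 to 4. The Trp53ΔIECAktE17K tumours lay inside the Trp53ΔIEC range, which held both the lowest and the highest value. The log2 fold change was -0.27 ± 0.61 (SE; edgeR adjusted p = 0.844) and turned to 0.29 without Trp53ΔIEC replicate 3.

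Clec4d is a C-type lectin that recognises fungal and mycobacterial glycolipids, and Trem1 is a receptor that amplifies inflammatory signalling in neutrophils and monocytes. Clec4d (ENSMUSG00000030144, chromosome 6, 123262111 to 123275265) was at 2.98, 8.08, 8.83 and 5.44 CPM in Trp53ΔIEC and at 6.26, 15.1, 9.87 and 11.5 CPM in Trp53ΔIECAktE17K replicates 1 to 4. Trem1 (ENSMUSG00000042265, chromosome 17, 48232768 to 48246924) was at 3.75, 12.8, 10.001 and 6.51 CPM and at 8.04, 31.3, 9.62 and 20.2 CPM in the same order. Trp53ΔIECAktE17K replicate 2 was highest for both genes, Trp53ΔIEC replicate 1 lowest, and the groups overlapped. The log2 fold changes were 0.76 ± 0.40 for Clec4d (edgeR adjusted p = 0.326) and 1.06 ± 0.53 for Trem1 (edgeR adjusted p = 0.294), with SE.

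Ly6g encodes the surface antigen by which mouse neutrophils are commonly identified (ENSMUSG00000022582, chromosome 15, 75155240 to 75159126). Ly6g was at 15.1, 23.2, 58.2 and 61.6 CPM in Trp53ΔIEC replicates 1 to 4 and at 9.57, 8.11, 9.78 and 91.9 CPM in Trp53ΔIECAktE17K replicates 1 to 4. Trp53ΔIECAktE17K replicates 1, 2 and 3 were below every Trp53ΔIEC tumour, and replicate 4 was the highest of all 8 tumours. The log2 fold change was -0.41 ± 0.88 (SE; edgeR adjusted p = 0.834), and without Trp53ΔIECAktE17K replicate 4 it was -2.12 (edgeR adjusted p = 0.0589). With the title letter as a term it was 0.36. Ly6g belongs to a family of similar genes, and reads that aligned to several places stand in a closing line of the tables, apart from the genes, so its level rests on reads placed uniquely.

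Retnlg encodes a secreted resistin-like protein of mouse neutrophils (ENSMUSG00000022651, chromosome 16, 48872621 to 48874496), and it too has close relatives in the genome. Retnlg was at 0.612, 12.9, 3.74 and 1.35 CPM in Trp53ΔIEC and at 4.36, 10.7, 19.7 and 42.4 CPM in Trp53ΔIECAktE17K replicates 1 to 4. Replicates 3 and 4 of Trp53ΔIECAktE17K were above all other tumours, and Trp53ΔIEC replicate 2 lay within the Trp53ΔIECAktE17K range. The log2 fold change of 2.05 ± 1.00 (SE) was not called (edgeR adjusted p = 0.285); it was 3.35 without Trp53ΔIEC replicate 2 and 1.29 without Trp53ΔIECAktE17K replicate 4.

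**Figure D2:**
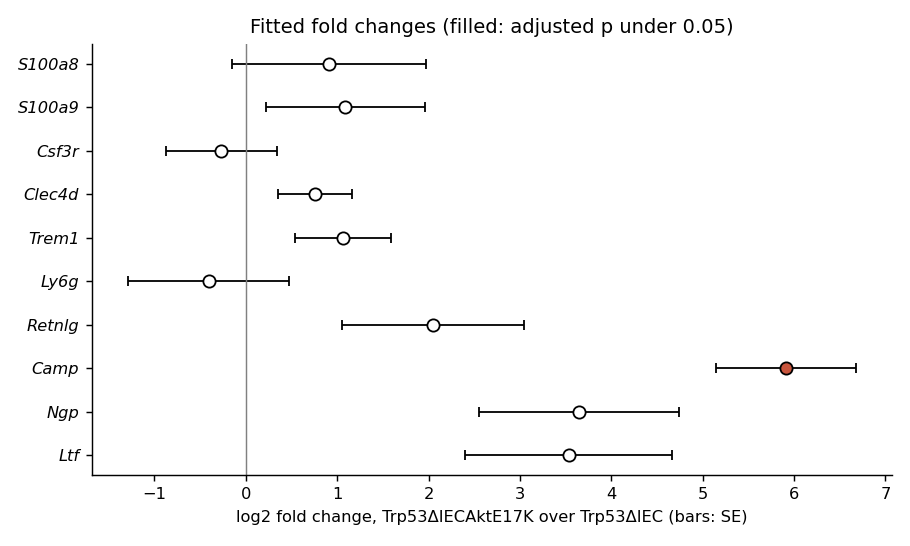
Fitted log2 fold change, Trp53ΔIECAktE17K over Trp53ΔIEC, of each of the 10 genes, with bars for the SE and a filled point where the edgeR adjusted p is under 0.05. The 3 granule genes lie at 3.53 to 5.91 and Camp alone is filled, while Csf3r and Ly6g lie below 0.

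Compared per kilobase of exon, the S100 pair had the highest group means, though not the highest level in every tumour. The mean level in CPM per kilobase was 110 and 206 for S100a8 and 172 and 366 for S100a9 in Trp53ΔIEC and Trp53ΔIECAktE17K tumours. Ly6g followed in Trp53ΔIEC tumours at 41.9 CPM per kilobase, and Ltf in Trp53ΔIECAktE17K tumours at 179.5 CPM per kilobase, where Ly6g was at 31.7 and Retnlg at 32.6. Single tumours carried these means: without the highest Trp53ΔIECAktE17K tumour they were 71.0 for Ltf, 9.72 for Ly6g, 19.6 for Retnlg, 124 for S100a8 and 237 for S100a9. The corresponding Trp53ΔIEC means without replicate 3 were 49.9 for S100a8 and 115 for S100a9. In Trp53ΔIECAktE17K replicate 2 Ltf, at 505 CPM per kilobase, was above S100a9 at 229 and S100a8 at 78.7. The receptors Csf3r, Clec4d and Trem1 were at 2.76 to 5.93 in Trp53ΔIEC and 4.93 to 6.69 CPM per kilobase in Trp53ΔIECAktE17K tumours, and their neighbours in this order did not differ beyond the spread between tumours. Camp and Ngp were lowest, at 0.0184 and 0.175 in Trp53ΔIEC and at 1.30 and 2.34 CPM per kilobase in Trp53ΔIECAktE17K tumours.

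The granule genes were set against the activation genes within each tumour, as the mean log2 CPM of Camp, Ngp and Ltf minus that of S100a8, S100a9, Csf3r, Clec4d and Trem1, with a prior count of 2. In the Trp53ΔIEC tumours, in replicate order, this difference was -2.96, -4.15, -5.04 and -4.43, and in the Trp53ΔIECAktE17K tumours it was -1.56, -0.83, -2.10 and -3.30. Trp53ΔIECAktE17K tumours were higher in granule relative to activation transcripts, except that replicate 4 lay below Trp53ΔIEC replicate 1. The group means were -4.15 ± 0.87 and -1.95 ± 1.04 (SD, n = 4 each), which differ by 2.20 on the log2 scale. The genes were chosen with results known, so no p is given for this score. It is built in part on Camp and Ngp, whose groups did not overlap, and is no further support for that. Its size also depends on the prior count, which sets the log2 value of a gene without reads.

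Camp and Ngp alone were also set against the receptors Csf3r, Clec4d and Trem1. That difference was -5.54, -5.63, -6.79 and -6.26 in Trp53ΔIEC and -2.90, -3.27, -3.12 and -3.07 in Trp53ΔIECAktE17K tumours. In reads, Camp and Ngp together gave 0, 3.38, 0.253 and 0.372 per 1000 reads of the 5 activation genes in Trp53ΔIEC and 6.06, 19.6, 12.2 and 8.33 in Trp53ΔIECAktE17K tumours. Both measures restate that Camp and Ngp, the genes they are built on, did not overlap between groups, and are no further support for it. For 3 of 4 Trp53ΔIEC tumours the log2 value of Camp is set by the prior count, as they had no Camp read.

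**Figure D3:**
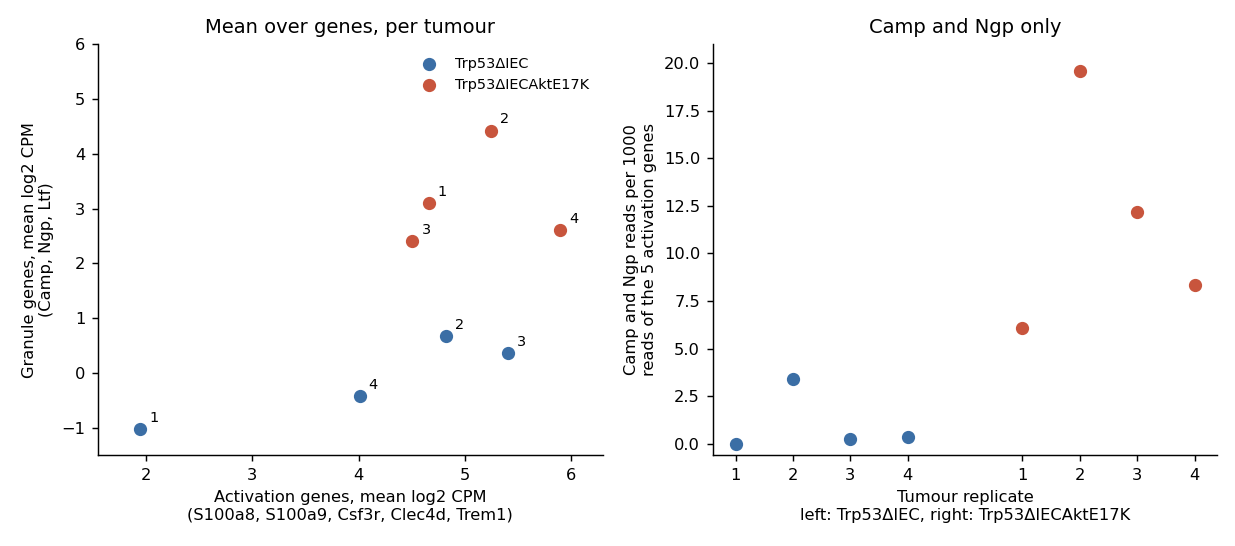
Left, mean log2 CPM over the 3 granule genes against that over the 5 activation genes, with 1 point per tumour. Right, Camp and Ngp reads per 1000 reads of the 5 activation genes in each tumour, 0 to 3.38 in Trp53ΔIEC and 6.06 to 19.6 in Trp53ΔIECAktE17K tumours.

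Relative to Csf3r, Ltf was nearly constant in Trp53ΔIEC tumours. The ratio of Ltf to Csf3r CPM was 2.97, 2.53, 2.46 and 2.39 in Trp53ΔIEC and 65.2, 69.2, 9.83 and 1.81 in Trp53ΔIECAktE17K tumours. Replicate 4 of Trp53ΔIECAktE17K was thus below all Trp53ΔIEC tumours by this ratio, although it had the most S100a8, S100a9, Ly6g, Retnlg and Ngp. Of the 9 ratios to Csf3r, the groups overlapped in 6 and did not in 3, those of Camp, Ngp and Trem1. Camp and Ngp were already apart in CPM, and the share of all genes apart by such a ratio was not computed. The ratio of Trem1 to Csf3r, shown because it was apart, was 0.70, 0.577, 0.232 and 0.432 in Trp53ΔIEC and 0.905, 1.24, 0.877 and 0.772 in Trp53ΔIECAktE17K tumours.

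Leukocyte content was compared through Ptprc, the pan-leukocyte antigen CD45, at 20.1, 51.5, 77.3 and 26.2 CPM in Trp53ΔIEC and 35.5, 39.4, 16.5 and 42.1 CPM in Trp53ΔIECAktE17K tumours. None of 6 pan-leukocyte genes was called, and their summed level was 170 to 453 CPM in Trp53ΔIEC and 168 to 451 CPM in Trp53ΔIECAktE17K tumours. Per 100 CPM of Ptprc, S100a9 was at 23.3, 205, 230 and 268 CPM in Trp53ΔIEC and at 431, 304, 597 and 934 CPM in Trp53ΔIECAktE17K tumours. Of the 10 ratios to Ptprc, the groups overlapped in 7 and did not in 3, those of S100a9, Camp and Ngp. Here too Camp and Ngp were already apart in CPM, and no share over all genes was computed for comparison. The partner gene S100a8 overlapped, at 13.2 to 261 against 139 to 749.8 CPM per 100 CPM of Ptprc. Csf3r per 100 CPM of Ptprc was 26.7, 43.2, 55.7 and 57.4 against 25.1, 63.9, 66.4 and 62.1 CPM, with overlap.

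**Figure D4:**
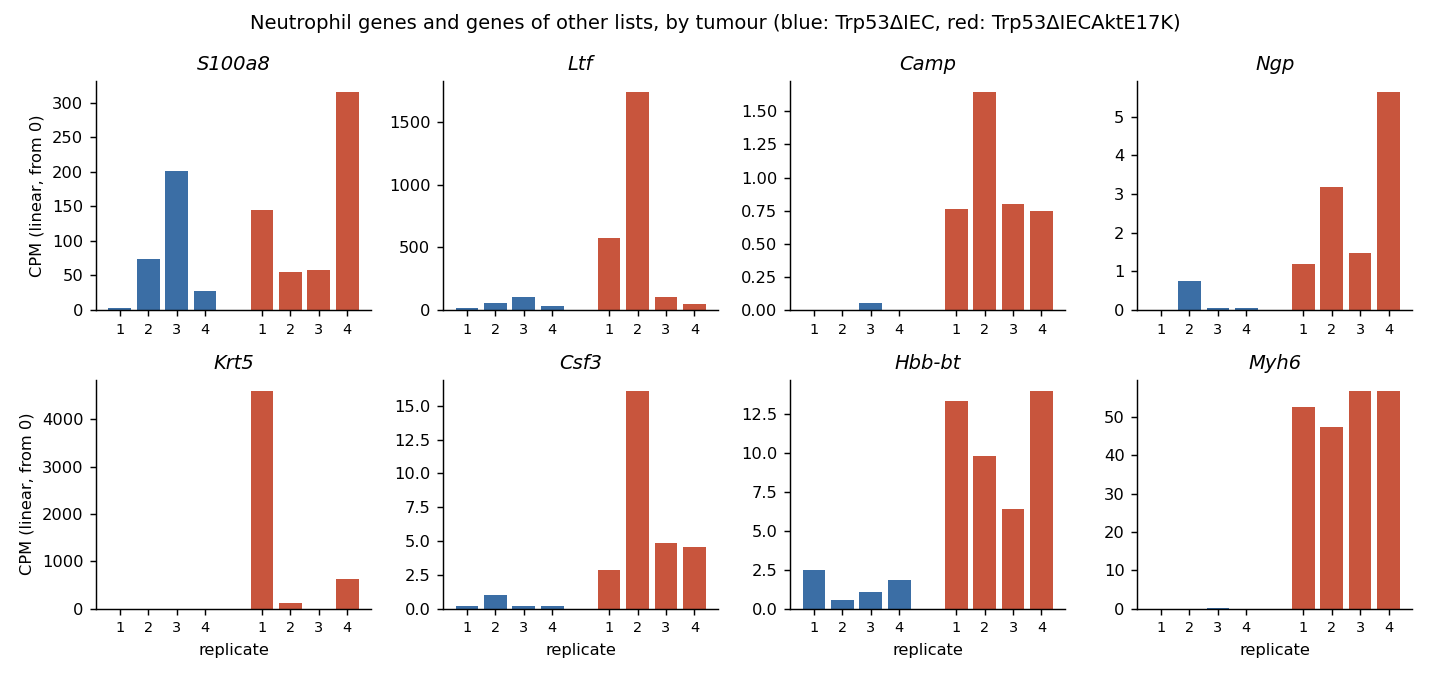
CPM of S100a8, Ltf, Camp and Ngp (top) and of the squamous gene Krt5, the growth factor Csf3, the erythroid gene Hbb-bt and the heart gene Myh6 (bottom), with 1 bar per tumour on linear axes from 0. Krt5 is highest in Trp53ΔIECAktE17K replicate 1 at 4606 CPM, Ltf and Csf3 in replicate 2 at 1743 and 16.1 CPM, and Myh6 is at 47.6 to 57.0 CPM in all 4.

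Among tumours, Trp53ΔIEC replicate 1 was lowest, or tied with others at 0, in 9 of the 10 genes. Trp53ΔIECAktE17K replicate 4 was highest in 5 of 10, Trp53ΔIECAktE17K replicate 2 in 4 and Trp53ΔIEC replicate 3 in 1, which was Csf3r. The highest value exceeded the lowest 5.06-fold for Clec4d, 8.03-fold for Csf3r, 8.35-fold for Trem1, 11.3-fold for Ly6g, 69.2-fold for Retnlg and 109-fold for Ltf.

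Correlations of log2 CPM over the 8 tumours were computed for all 45 pairs, and 41 had a Pearson r above 0. S100a8 and S100a9 had r = 0.975 and Spearman's rho = 0.929 (exact permutation test, adjusted p = 0.00446 for r and 0.0815 for rho), and r was 0.961 without the 2 tumours farthest from the S100a8 median. Clec4d and Trem1 had r = 0.943 and rho = 0.905 (exact permutation test, adjusted p = 0.0162 for r and 0.0815 for rho), and r was 0.844 without the 2 farthest tumours. These were the 2 pairs that passed by r, and no pair passed by rho.

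Ly6g stood apart from the other neutrophil genes, with a median r of 0.00 over its 9 pairs, and the other medians ran from 0.45 for Ltf to 0.73 for Clec4d. Its r was 0.52 with Csf3r, and it was -0.42 with Camp and -0.56 with Ltf. Retnlg and Ngp had r = 0.892 and rho = 0.881 (exact permutation test, adjusted p = 0.0510 for r), which did not pass. Groups of 4 tumours are too small for a correlation within a genotype.

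**Figure D5:**
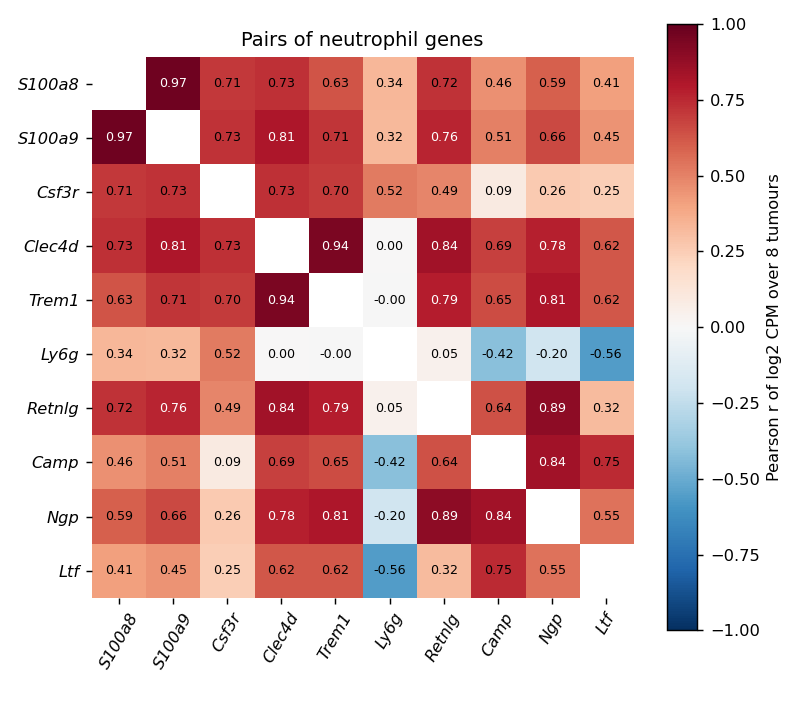
Pearson r of log2 CPM over the 8 tumours for each pair of the 10 genes, with the value printed in each cell. S100a8 with S100a9 and Clec4d with Trem1 are highest, and the row of Ly6g holds the negative values.

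The genes whose pattern over the 8 tumours was most like the mean standardised log2 CPM of the 10 genes were sought among 14028 genes with an average log2 CPM of at least 0. They were Il1r2, the decoy receptor of interleukin 1, with r = 0.982, Irf7, an interferon-inducible transcription factor, with r = 0.974, Itgam, the integrin chain CD11b, with r = 0.963, Cyp4f18, a cytochrome P450 that acts on leukotriene B4, with r = 0.957, and Mcemp1, a membrane protein of mast cells and myeloid cells, with r = 0.957. Il1r2 was at 2.79, 8.42, 7.77 and 4.51 CPM in Trp53ΔIEC and at 7.41, 11.1, 8.19 and 11.5 CPM in Trp53ΔIECAktE17K tumours. None of the 5 was called (edgeR adjusted p from 0.119 to 0.451).

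Other granule genes were examined as 2 lists. Of the azurophil granule genes, made earliest in maturation, only Mpo and Prtn3 had enough reads, and 1 of the 2 was higher. Prtn3, which encodes the serine protease proteinase 3, was at 0.268, 0.263, 0.168 and 0.186 CPM in Trp53ΔIEC and 0.931, 2.06, 0.756 and 0.512 CPM in Trp53ΔIECAktE17K tumours (fitted log2 fold change 2.22 ± 0.49, SE; edgeR adjusted p = 0.0447), and 1 of 8 fits without a tumour kept the call. No Trp53ΔIEC tumour and all 4 Trp53ΔIECAktE17K tumours reached the filter level for Prtn3, so it too entered the test only through the group in which it was high. Mpo, myeloperoxidase, was at 1.58 to 2.56 CPM in Trp53ΔIEC and 0.466 to 3.46 CPM in Trp53ΔIECAktE17K tumours. Elane, neutrophil elastase, had 10 reads and Ms4a3, a marker of granulocyte and monocyte precursors, 6 reads, all in Trp53ΔIECAktE17K replicate 1. The other untested genes of the list, Ctsg and Bpi, were not confined to a genotype. Ctsg had 6, 0, 1 and 0 reads in Trp53ΔIEC and 3, 2, 0 and 1 reads in Trp53ΔIECAktE17K replicates 1 to 4. Bpi had 3, 0, 0 and 0 against 2, 1, 2 and 0 reads in the same order.

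Of 9 other specific and gelatinase granule genes, 2 were higher and none lower. Their median log2 fold change was 0.45, and 6 of 9 were above 0. Their sums overlapped, at 898 to 2102 CPM in Trp53ΔIEC and 1105 to 1782 CPM in Trp53ΔIECAktE17K tumours. Mmp9, Itgb2l and Pglyrp1 were below 0, at -1.58, -0.83 and -0.73 (edgeR adjusted p = 0.198, 0.277 and 0.325). Chil3, a chitinase-like protein of neutrophils and of alternatively activated macrophages, was at 0.765, 0.489, 0.726 and 0.140 CPM in Trp53ΔIEC and 7.45, 9.63, 22.8 and 20.8 CPM in Trp53ΔIECAktE17K tumours (fitted log2 fold change 4.82 ± 0.62; edgeR adjusted p = 0.0107). Mmp8, neutrophil collagenase, was at 0.536, 2.86, 1.23 and 0.698 against 5.25, 7.94, 9.87 and 17.7 CPM (2.93 ± 0.63; edgeR adjusted p = 0.0419), and no fit that left out a tumour kept that call. Neither gene's groups overlapped, as for Camp and Ngp. The macrophage and monocyte list, with none of 12 genes called, summed to 619 to 1355 CPM in Trp53ΔIEC and 498 to 1432 CPM in Trp53ΔIECAktE17K tumours, and its part in the Chil3 result was not tested.

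The growth factor that binds Csf3r was higher, although Csf3r was not called. Csf3, granulocyte colony-stimulating factor, was at 0.191, 0.978, 0.223 and 0.186 CPM in Trp53ΔIEC and 2.88, 16.1, 4.83 and 4.56 CPM in Trp53ΔIECAktE17K tumours, with no overlap (log2 fold change 4.13 ± 0.81; edgeR adjusted p = 0.0339). Only 1 Trp53ΔIEC tumour, but all 4 Trp53ΔIECAktE17K tumours, reached the filter level for Csf3. Il6, an inflammatory cytokine, was at 0.574, 0.865, 0.391 and 0.372 against 7.96, 62.9, 13.98 and 3.82 CPM (5.30 ± 0.96; edgeR adjusted p = 0.0264). They were the 2 called of 10 attractants and growth factors, and the calls held in 2 of 8 fits without a tumour for Csf3 and in 3 of 8 for Il6. Csf3 was also the only one called of 8 partners of the 10 genes, a list that holds the adaptor Tyrobp of Trem1.

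The remaining neutrophil lists held few calls. Of 12 other surface receptors, none was higher and 1 was lower, the bacterial lipoprotein receptor Tlr2, at 114, 135, 183 and 89.2 CPM in Trp53ΔIEC and 56.2, 46.5, 77.8 and 59.1 CPM in Trp53ΔIECAktE17K tumours (fitted log2 fold change -1.12 ± 0.24; edgeR adjusted p = 0.0439; 1 of 8 fits without a tumour). None of 11 activation products was called, with the chemokines Ccl4 and Ccl3 nearest at log2 fold changes of 2.24 and 2.98 (edgeR adjusted p = 0.0685 and 0.0773). None of 5 transcription factors of granulocyte formation was called, with Cebpb nearest at 1.06 (edgeR adjusted p = 0.0615) and Cebpa at -0.29. None of 10 other S100 genes was called, with S100a13 at 0.52 and S100a3 at 4.16 (edgeR adjusted p = 0.142 and 0.158).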

How the data were processed

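Poly(A) RNA of 8 whole tumours was sequenced after extraction with the RNeasy Mini Kit and library preparation with the TruSeq mRNA v2 kit, which does not mark strand, per the labels' protocols. The authors deposited raw read counts per Ensembl gene, 1 table per tumour. Per the submitters' processing notes the build was mm10, and the tools named, with no role stated, were STAR 2.3.0, HTSeq 0.6, DESeq2 1.8.1, SAMtools 1.2 and CASAVA 1.8.2. The strand setting, annotation and read filters were not stated there. The 5 closing summary lines of each table, which hold the alignments that were not unique, were set aside. Of 38355 identifiers, 95.4% were matched to symbols in GENCODE M21.

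The counts were filtered with filterByExpr, scaled by TMM and tested with edgeR 4.0.16 (quasi-likelihood, robust, genotype as the only term, 4 tumours per group), with Benjamini-Hochberg adjustment over 16539 genes. DESeq2 1.42.0 and limma-voom (limma 3.58.1) were alternatives, with size-factor scaling, no filter, no robust estimation, a replicate block, the title letter as a term, each tumour left out, and Trp53ΔIECAktE17K replicates 1 and 4 left out together. The fitting script was tested on simulated data. Pairs of genes were tested with exact 2-sided permutation over tumours. No exon of the 10 genes overlaps another gene's. Libraries were compared for duplication within each genotype only, and none duplicated another there. Genes named were all 10, then up to 4 called or else 2 uncalled with the smallest p per list, and the 5 most alike. Other genes named, and the ratios to Csf3r and Ptprc that are printed, were chosen after their values were seen. The 10 genes and the 19 other lists were chosen with earlier results of these data known. Precision is set by 18572180 to 26268547 assigned reads per tumour, and intervals cover counting error only.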

Additional observations from a re-analysis of the deposited data

Results flagged for a closer look

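Within each genotype, the highest and lowest tumours were compared with the other 3 by Dixon's criterion at its 95% critical value. Of 98 groups tested, 16 held a tumour far from the rest, 4 of them among the 20 groups of the neutrophil genes. Chance flags about 1 group in 20 only if values are normally distributed. These were linear CPM and all 16 flags were at the high end, so that rate is no measure of an excess here. A group with reads in 1 tumour only, as for Camp in Trp53ΔIEC and Crp in Trp53ΔIECAktE17K, is flagged at any count. Ly6g was at 91.9 CPM in Trp53ΔIECAktE17K replicate 4, with the other 3 tumours at 8.11 to 9.78 CPM. Camp was at 0.0559 CPM, a single read, in Trp53ΔIEC replicate 3, where the others had none. In Trp53ΔIECAktE17K replicate 2, Camp stood out at 1.65 CPM. Ngp stood out at 0.752 CPM in Trp53ΔIEC replicate 2.

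In Trp53ΔIECAktE17K replicate 2, Ccl4 was at 20.8 CPM, Csf3 at 16.1 CPM and Cd68 at 147 CPM, each far above the other 3 tumours. Csf3 was at 0.978 CPM, Krt5 at 0.714 CPM and Tnni3 at 4.59 CPM in Trp53ΔIEC replicate 2. Cx3cr1 was at 63.4 CPM, Cd8a at 6.03 CPM and Krtdap at 0.559 CPM in Trp53ΔIEC replicate 3. Krt5 was at 4606 CPM and Crp at 0.0423 CPM, a single read, in Trp53ΔIECAktE17K replicate 1, and Kit was at 292 CPM in Trp53ΔIECAktE17K replicate 3.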

How the results depend on the processing

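Across the 16 alternatives, 150 of 160 fold changes of the neutrophil genes kept their direction and their side of the threshold, 3 passed it, 3 no longer passed it and 4 changed sign. The sign changes were S100a8 at -0.47 without Trp53ΔIECAktE17K replicates 1 and 4, Csf3r at 0.00396 with limma-voom and at 0.29 without Trp53ΔIEC replicate 3 (lowest -0.59 with a tumour left out), and Ly6g at 0.36 with the title letter. The neutrophil genes called higher numbered 3 with DESeq2, 2 with limma-voom, 0 with the replicate block and 0 to 1 with a tumour left out. Camp alone was lost under the block (edgeR adjusted p = 0.0619). The deviations of same-numbered tumours from their group means had correlations of -0.039, 0.008, -0.243 and 0.009. With 4 tumours per group, these cannot show whether the numbers pair the samples. The fitted log2 fold change of Camp hardly changed under the block, and the cause of the lost call was not tested. The granule minus activation difference of 2.20 stayed between 1.83 and 3.05.

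Of the 608 values of other named genes, 459 kept direction and side, 10 passed, 136 no longer passed and 3 changed sign: S100a3 at -1.08 without both tumours, Laptm5 at -0.094 with the letter, and Cd8a, at -1.49 to 0.15 with a tumour left out. Of the 153 other list genes, 18 were higher and 4 lower. These became 34 and 7 with DESeq2, 4 and 1 with the replicate block, 4 and 1 with the letter, and 4 to 17 and 1 to 6 with a tumour left out, while limma-voom called 11 higher and the fit without both tumours 11 higher. Over all genes, 569 higher and 125 lower became 1715 and 764 with DESeq2, 48 and 2 with the replicate block, 90 and 6 with the letter, and 64 to 702 and 10 to 247 with a tumour left out, with 223 lower without both tumours. The cause was not tested. Camp and Ngp rest on at most 121 reads per tumour.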

Other observations

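The lists of other blood and tissue cells held calls in a few places. Of 3 eosinophil genes tested, Ccr3, the eotaxin receptor, was lower, at 1.19, 0.902, 2.07 and 0.745 CPM in Trp53ΔIEC and 0, 0.165, 0.0420 and 0.0931 CPM in Trp53ΔIECAktE17K tumours (edgeR adjusted p = 0.0251). No Trp53ΔIECAktE17K tumour reached the filter level for Ccr3 and all 4 Trp53ΔIEC tumours did, so it was tested only through the group in which it was high, as was Crp among the hepatocyte genes. None of 8 mast cell genes was called, with Kit at a log2 fold change of 2.41 and Cma1 at -1.59 (edgeR adjusted p = 0.159 and 0.193). None of 8 lymphocyte genes was called, with Cd3g at -1.33 and Cd8a at -1.15 (edgeR adjusted p = 0.432 and 0.465). None of 12 macrophage and monocyte genes was called, with Cd68 at 1.16 and Cx3cr1 at -0.74 (edgeR adjusted p = 0.182 and 0.382). The pan-leukocyte genes Itgam and Laptm5 were at 0.53 and 0.59 (edgeR adjusted p = 0.288 and 0.470), and none of 4 platelet genes was called.

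Of 4 hepatocyte genes tested 1 was lower, Crp, an acute-phase protein of the liver, at 4.80 to 5.64 CPM in Trp53ΔIEC tumours and at 0.0423 CPM in 1 and 0 in 3 Trp53ΔIECAktE17K tumours (edgeR adjusted p = 0.00135). None of 9 colon epithelium genes was called. In the erythroid list Hba-a1 was called higher and Hba-a2, with 115 reads in Trp53ΔIEC and 2 in Trp53ΔIECAktE17K tumours, lower. They are near-identical copies, and alignments to more than 1 place stand in a closing line apart from the genes, so both levels rest on reads that tell the copies apart and are uncertain. Among the heart muscle genes called, Myl2 was at 0 to 0.112 CPM against 9.74 to 11.6 CPM.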
